A study of Caenorhabditis elegans with 2 samples.

Results

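SNPC-4, a subunit of the small nuclear RNA activating protein complex (SNAPc), was examined at the replication-dependent and variant histone genes of Caenorhabditis elegans. The members were all protein-coding genes with a symbol of the form his-N in the WBcel235 annotation, 72 of 19985 protein-coding genes. By RefSeq product they comprised 17 H2A, 16 H2B, 15 H3, 16 H4 and 5 H3.3 genes, the linker histone H1 gene his-24, and 2 genes annotated only as histone-fold domain proteins, his-39 and his-73. A member was counted when the nearest summit of a peak list lay within 500 bp of its annotated 5′ end, on either side.

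The data were transcription factor ChIP-seq of whole young adult worms of pooled sexes, in 1 group of 2 biological replicates. Both replicates were strain OP179, with the genotype unc-119(ed3) III; wgIs179. Per the labels, this line stably expressed SNPC-4 with GFP-FLAG fused to the C-terminus, and chromatin was fragmented by sonication. The sources used here give neither the promoter or copy number of the transgene nor the age of the worms, and the control experiment named in the labels was not analysed here. There was no second genotype, stage or treatment, so that no groups of samples were compared, and signal from germline, muscle, neurons and other tissues is mixed in every value.

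Core histones H2A, H2B, H3 and H4 build the nucleosome, and H1 binds the linker DNA between nucleosomes. In C. elegans most core histone genes lie in clusters of divergent pairs, in which neighbouring genes share 1 short promoter, and their mRNAs are made by RNA polymerase II in dividing cells and end in a stem-loop. H3.3 genes encode the H3 variant that is deposited outside replication. SNAPc is known as the promoter factor of snRNA and spliced leader RNA genes, and SNPC-4 also as a factor of piRNA genes.

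A 9-base word, ATGTGTCCC on either strand, lay within 100 bp of the 4 thresholded SNPC-4 summits nearest to histone gene 5′ ends. It was the longest word that these 4 windows shared. The word was picked after the summits were known, so its presence there is a description. A further thresholded entry (44.7), near the his-60 3′ end, also lay within 500 bp of that gene's 5′ end. This entry was not the nearest, and its window lacked the word. The windows below are the RefSeq WBcel235 (ce11) sequence, plus strand, 5′ to 3′, with the word in capitals (GGGACACAT where it lies on the minus strand). The first 3 are centred on thresholded summits, the next on the summit at the H1 gene, which is in the pooled list only, and the last on the midpoint between his-31 and his-32, a pair with no summit in any list.
his-61/his-62, chrIV:7486313-7486513: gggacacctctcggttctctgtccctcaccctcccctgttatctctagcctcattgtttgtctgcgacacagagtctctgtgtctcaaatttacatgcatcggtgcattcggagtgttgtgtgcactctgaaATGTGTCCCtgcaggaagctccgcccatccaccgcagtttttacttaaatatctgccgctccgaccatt
his-60/his-59, chrIV:7487986-7488186: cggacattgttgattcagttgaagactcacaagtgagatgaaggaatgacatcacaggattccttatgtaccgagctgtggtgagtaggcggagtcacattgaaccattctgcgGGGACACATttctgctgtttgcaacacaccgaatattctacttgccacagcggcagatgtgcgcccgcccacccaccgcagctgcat
his-37, chrV:9546899-9547099: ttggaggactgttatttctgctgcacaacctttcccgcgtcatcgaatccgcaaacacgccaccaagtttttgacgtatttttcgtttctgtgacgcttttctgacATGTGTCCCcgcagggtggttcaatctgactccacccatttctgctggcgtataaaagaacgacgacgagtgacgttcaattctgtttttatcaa
his-24, chrX:14489970-14490170: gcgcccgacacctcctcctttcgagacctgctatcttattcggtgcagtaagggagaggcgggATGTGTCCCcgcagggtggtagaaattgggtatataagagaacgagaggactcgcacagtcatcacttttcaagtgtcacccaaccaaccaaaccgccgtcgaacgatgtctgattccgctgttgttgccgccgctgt
his-31/his-32, chrIV:8334044-8334244: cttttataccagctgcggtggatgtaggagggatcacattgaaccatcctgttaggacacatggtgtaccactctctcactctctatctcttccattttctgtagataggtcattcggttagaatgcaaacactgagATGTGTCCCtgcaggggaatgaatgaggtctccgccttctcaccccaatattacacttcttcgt

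The word lay 2 bp from the summit at his-67/his-68, whose window is not printed, 36 bp from that at his-61/his-62, 18 bp at his-60/his-59, 10 bp at his-37 and 33 bp at his-24. In all 5 windows the word was followed on its own strand by 1 variable base and GCAG. This longer form, ATGTGTCCC with any base and GCAG after it, was counted in the promoters, 250 bases before to 50 after the start. It stood in 30 of 72 histone genes (41.7%) and in 33 of 19985 protein-coding genes in all (0.165%). The 30 are not independent, as 33 of the 72 members shared an identical promoter with another member and both genes of a divergent pair can hold the same copy. Only 3 genes outside the his-N series held it, the linker histone gene hil-2, fbxb-107 and K07C5.13. The windows of the 4 nearest thresholded summits held the longer form, and no other of the 2345 thresholded windows did. That of the further his-60 entry was among those without it. The longer form was read from the same windows, so this split follows from its choice.

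Of the 72 histone genes, 7 had a summit in the authors' thresholded list, which was filtered by irreproducible discovery rate (IDR), 9.72% against 5.51% of all protein-coding genes. The nearest summits of these 7 genes were 4 in number, at 3 divergent pairs and at 1 further H4 gene. The genes included 3 H4, 2 H2A, 1 H2B and 1 H3 gene. In the pooled list, which holds peaks and background by its label, 20 members had a summit, 27.8% against 30.0% of all protein-coding genes, so that the whole family did not stand above the background there. The list of replicate 1 gave 22 members (background 29.8%) and that of replicate 2 gave 19 members (background 32.8%), with 17 members in both. Among the strongest 2345 entries of each replicate, as many as the thresholded list held, there were 7 members in replicate 1 (background 5.02%) and 5 in replicate 2 (background 5.06%).

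The highest signal stood between his-67, an H4 gene, and his-68, an H2A gene that faces away from it (chrI:9988765-9989126, summit at 9988888). Signal here means the deposited enrichment of an entry, as the peak caller reported it, and it serves to describe and rank entries of a single list. It was 84.4 in replicate 1 and 91.3 in replicate 2, and 161 in the thresholded list, rank 260 of 2345. Both replicates held this summit among their strongest entries, and it lay 125 bp upstream of his-67 and 244 bp upstream of his-68.

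The H4 gene his-37 had the next highest signal (chrV:9546931-9547091, summit at 9546999, 106 bp upstream). Its values were 39.2 in replicate 1 and 47.9 in replicate 2, and 94.2 in the thresholded list, rank 533. The neighbouring pair of the same cluster, his-35 (H2A) and his-41 (H2B), had no thresholded summit within 500 bp of a 5′ end. The pooled signal between these 2 genes was 14.3, from 6.68 in replicate 1, while the nearest entry of replicate 2 to his-41 was 8.50 at 417 bp inside the gene.

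The other 2 of the 4 summits lay in 1 cluster of 4 genes. The span of this cluster held 3 thresholded entries, the third being that of 44.7 near the his-60 3′ end. Between his-61 (H2A) and his-62 (H2B) the signal was 51.2 in replicate 1 and 39.2 in replicate 2, and 89.9 in the thresholded list, rank 592 (chrIV:7486277-7486518, summit at 7486413). Between his-60 (H4) and his-59 (H3) it was 32.5 in replicate 1 and 18.9 in replicate 2, and 54.5 in the thresholded list, rank 1454 (chrIV:7488001-7488205, summit at 7488086). The replicate 2 entry at his-60/his-59 had rank 2729 and thus lay outside its strongest 2345, which is the difference of 2 genes between the replicates' counts. In each of the 4 thresholded loci both replicates held an entry, although the nearest entry to his-59 in replicate 1 was a weaker one of 3.003, at 132 bp inside the gene.

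All 4 summits lay upstream of the genes, at 94 to 244 bp with a median of 132 bp over the 7 genes, and outside any protein-coding gene. The nearest annotated noncoding RNA 5′ end was 2545 to 5278 bp away and the nearest piRNA gene at least 13997 bp away. For 65 of the 72 members the annotated 5′ end is the start codon, against 23.5% of protein-coding genes, so distances for members are mostly distances from the start codon. The thresholded summits at protein-coding genes numbered 856 and had a median signal of 61.8, with quartiles of 49.97 and 85.6. Of the 4 histone summits, 3 lay above the upper quartile and his-60/his-59 lay below the median.

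**Figure D1:**
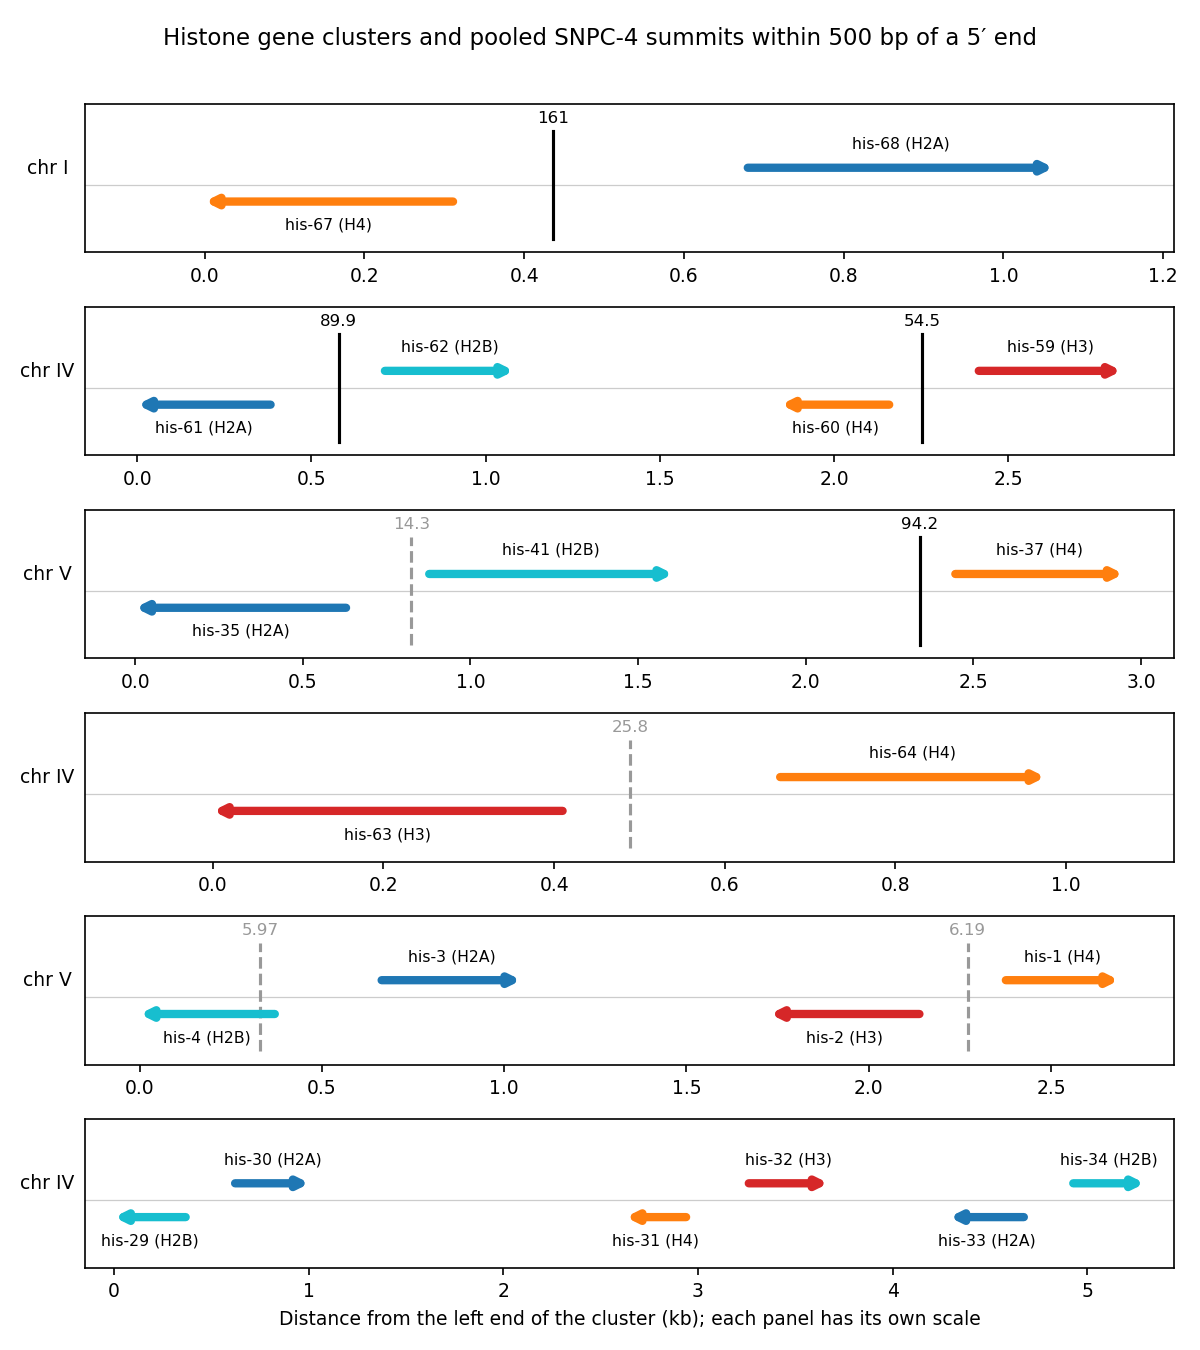
Maps of 6 histone clusters, with arrows for genes (coloured by class, pointing 5′ to 3′), solid lines for thresholded summits and dashed lines for pooled summits that are not in the thresholded list, each with its pooled signal; the x axis is the distance from the left end of the cluster in kb. The thresholded summits of 161, 89.9 and 54.5 stand between divergent genes and that of 94.2 stands upstream of his-37, while the 6-gene cluster in the last panel has none. Only entries nearest to a 5′ end are drawn, so the thresholded entry of 44.7 near the his-60 3′ end is not shown.

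Lower pooled signals made up the other 13 members of the 20. The H1 gene his-24 led them with 31.5, rank 3844 of 30000, from 15.9 in replicate 1 and 11.1 in replicate 2, at 24 bp upstream (summit at chrX:14490070). A noncoding RNA gene, M163.19, starts 78 bp from the his-24 summit, so that the entry cannot be assigned to his-24 alone. The pair his-63 (H3) and his-64 (H4) had 25.8, with 14.7 in replicate 1 at the same position. The noncoding gene F22B3.19 starts 53 bp from this summit. The nearest entry of replicate 2 was 2.67 at another position, 152 bp inside his-63.

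The remaining pooled entries were weaker. They were 7.29 at his-38/his-40 (H4 and H3), 6.19 at his-2/his-1 (H3 and H4), 5.97 at his-4/his-3 (H2B and H2A) and 5.26 at the H3.3 gene his-74. The median of the pooled list is 11.3, so these 4 summits lay below it, whereas those of his-24, his-63/his-64, his-35/his-41 and the H3.3 gene his-72 lay above. For his-72 the nearest pooled entry was 12.1 at 130 bp inside the gene, and the strongest in the window was 33.2 at 339 bp inside the gene. The nearest entry of replicate 1 was 4.31 at 143 bp inside the gene. That of replicate 2 was 12.4 at another position, 179 bp upstream. Over the 20 genes the median pooled signal was 20.1, with a range of 5.26 to 161, and 18 of the 20 nearest summits were upstream, at a median distance of 123 bp.

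**Figure D2:**
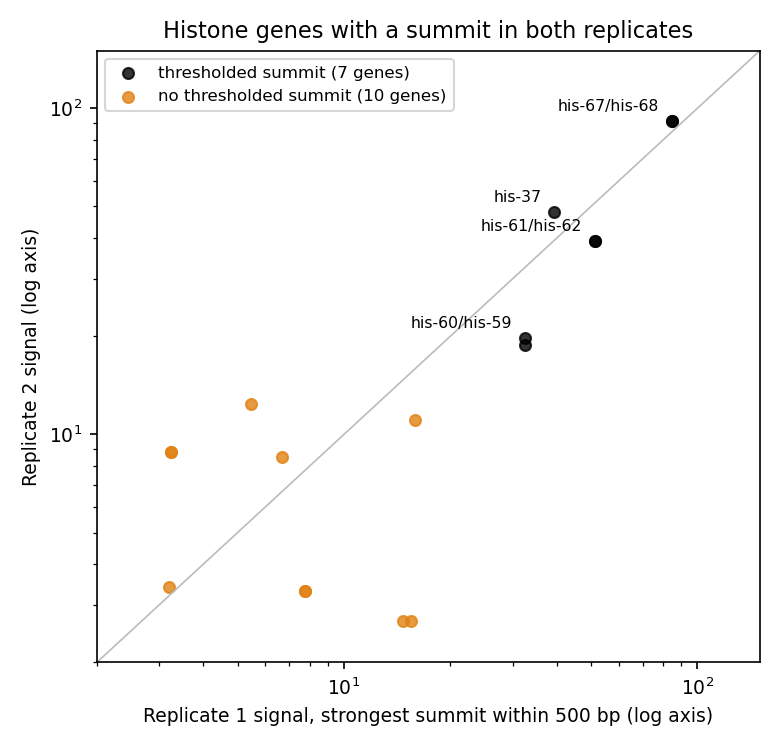
Signal of the strongest entry within 500 bp in replicate 1 (x axis) and replicate 2 (y axis), both on log axes, for the 17 histone genes with an entry in both lists; black points are the 7 genes with a thresholded summit, orange points the other 10, the line marks equal values of the separately made lists, and genes that share a summit can overlap. The black points lie between 18.9 and 91.3 in replicate 2 and the orange points at or below 12.4.

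Many histone promoters are copies of one another, and a read from a repeated stretch has no single place to map. Uniqueness was measured in the 200 bp on either side of each start, as the percent of words of 32 bases that the genome holds only once. It was under 20% for 40 of the 72 members and 0 for 36 of them. In the 300-base promoters the 72 members had 51 distinct sequences, and 33 members shared an identical promoter with another member. None of the 40 had a summit in the thresholded or the pooled list or in that of replicate 1. Of the 40, 1, his-66, had one in replicate 2 (13.7), 478 bp downstream of the 5′ end and 107 bp beyond the 3′ end. Among all protein-coding genes with under 20% unique words, 0.258% had a thresholded and 1.29% a pooled summit, so summits were seldom listed at such promoters over the 387 genes of this kind, the members included. How the authors treated reads with several possible places was not tested, and for these 40 genes absence of a summit and loss of its reads cannot be told apart.

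Among the 16 members with at least 80% unique words, 6 had a thresholded summit (37.5%) and 12 a pooled summit (75%). Protein-coding genes of the same uniqueness had 5.74% and 31.2%. Among the 16 members with 20 to 80%, 1 had a thresholded and 8 a pooled summit, against 2.95% and 18.2% of such genes. The members of a pair share a summit, so the 6 genes stand for 4 summits and are not independent.

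Most members share a promoter with another member, so that 1 summit can be counted for 2 genes. A divergent histone partner with its 5′ end within 500 bp was present for 62 members, with 227 to 368 bases between the starts and a median of 258. All protein-coding genes with a divergent protein-coding 5′ end within 500 bp upstream had a thresholded summit in 17.0% and a pooled one in 52.3%. All 62 paired members together lay below this, with 6 thresholded (9.68%) and 16 pooled (25.8%). With at least 20% unique words on both sides of the comparison, 6 of 22 paired members had a thresholded summit (27.3% against 17.7%) and 16 a pooled one (72.7% against 54.3%). With each pair counted as 1 promoter, whether or not it had a summit, 4 of 41 histone promoters had a thresholded summit (9.76%) and 12 a pooled one (29.3%).

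**Figure D3:**
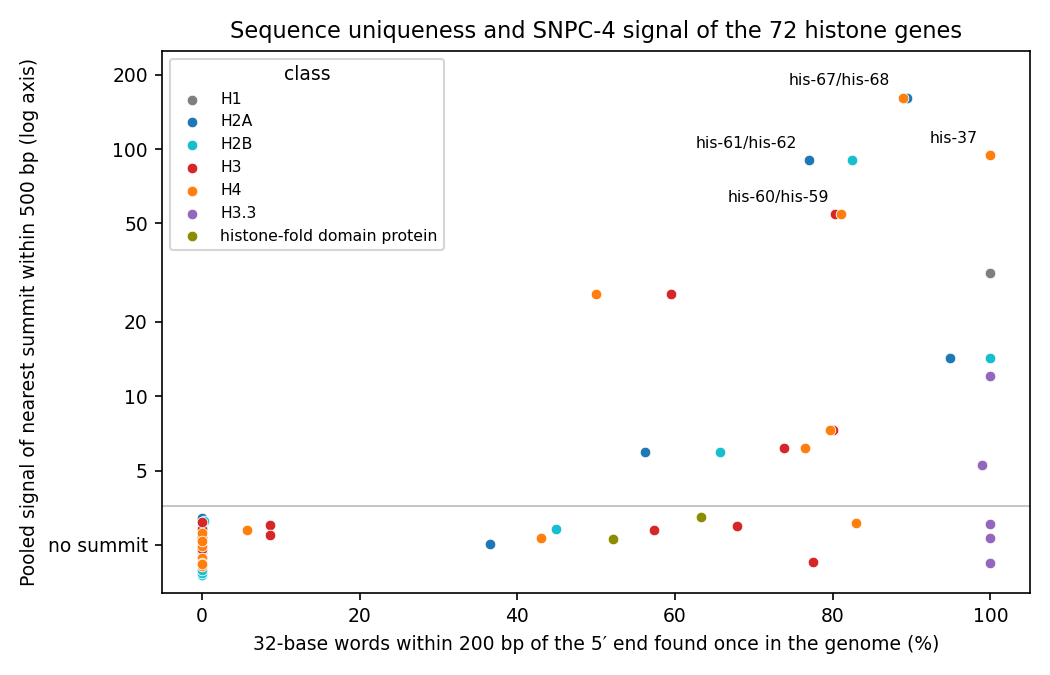
Sequence uniqueness (x axis, % of 32-base words found once in the genome) against the pooled signal of the nearest summit within 500 bp (y axis, log) for the 72 histone genes, coloured by class; genes with no summit are spread by a small jitter in the lower band. The 40 genes under 20% all lie in the lower band, and the 7 genes with a thresholded summit have between 77% and 100% unique words.

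**Figure D4:**
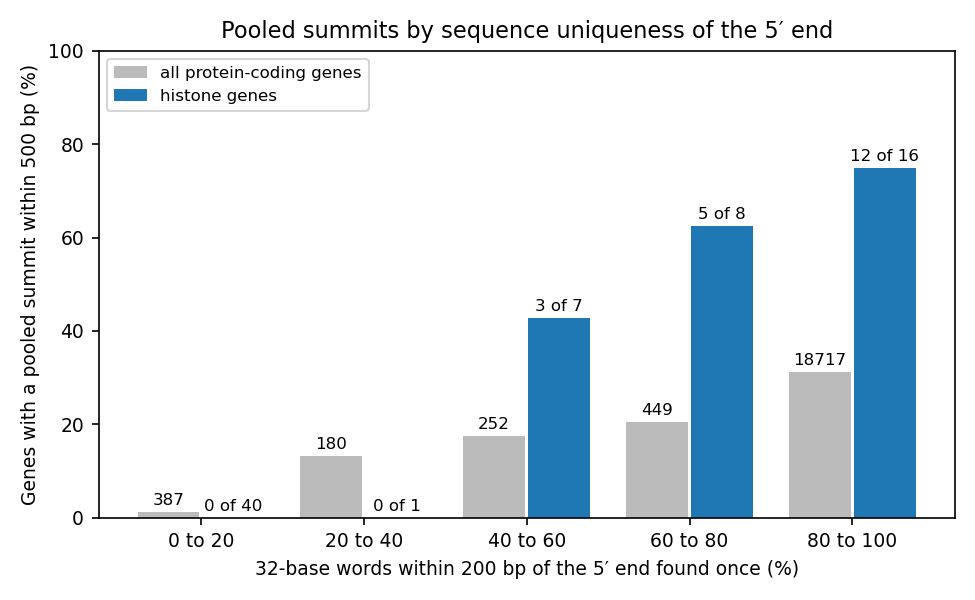
Percent of genes with a pooled summit within 500 bp (y axis) in 5 bins of sequence uniqueness (x axis, % of 32-base words found once), for all protein-coding genes (grey, number of genes above the bar) and histone genes (blue, members with a summit of all members). The grey bars rise from 1.29% to 31.2%, and the blue counts go from 0 of 40 to 12 of 16.

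Multi-gene clusters were set against single genes. By 5′ ends at most 5 kb apart, 67 members formed 15 clusters of 2 to 13 genes and 5 members stood alone. All 7 thresholded members were clustered (10.4% of 67) and none was single, whereas a pooled summit was present for 17 clustered (25.4%) and 3 single genes (60.0%). Over all protein-coding genes these shares were 5.51% and 30.0%, so that the clustered pooled share lay below the background. In the replicate lists 4 of the 5 single genes had a summit in replicate 1 and 4 in replicate 2. With at least 80% unique words the pooled shares were the same, 9 of 12 clustered and 3 of 4 single genes, and the thresholded counts were 6 of 12 and 0 of 4, against 31.2% and 5.74% of all genes of that uniqueness. Among the strongest 2345 entries of a replicate the order was the other way, with 7 clustered genes in replicate 1, 5 in replicate 2 and no single gene. With so few single genes the order of the groups is given as counts only.

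None of the 5 single genes had a thresholded summit. Among them the highest signal of a nearest pooled entry, 31.5 at his-24, lay above the upper quartile of the pooled list (20.15). The H1 gene his-24 and the H3.3 genes his-72 and his-74 have been given above. For his-74 replicate 1 held 10.9 at 266 bp upstream and replicate 2 held no summit in the window. The H3.3 gene his-71 had 3.20 in replicate 1 and 3.41 in replicate 2, at 68 and 60 bp upstream, and no pooled entry. For his-73, a histone-fold domain protein gene with 52.2% unique words, the only value was 2.86 in replicate 2.

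Summits fell in few of the clusters. Of the 15 clusters 3 held thresholded members and 6 held pooled members, while the other 9 had no member with a pooled summit. The largest, with 13 genes over 10.9 kb of chromosome II, had a median uniqueness of 0. In the 8-gene cluster of chromosome V, over 9.05 kb, the nearest pooled entries lay 99897 bp to the left and 25538 bp to the right, and its most unique promoter had 5.68% unique words. The 4 genes of the chromosome IV cluster with 2 of the 4 nearest thresholded summits, his-61 to his-59, had 77% to 82.4%.

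By class, thresholded summits were counted for 3 of 16 H4, 2 of 17 H2A, 1 of 16 H2B and 1 of 15 H3 genes, and for none of 5 H3.3 genes, the H1 gene or the 2 histone-fold domain genes. Pooled summits were counted for 6 H4, 4 H2A, 3 H2B, 4 H3 and 2 H3.3 genes and for H1. Against 5.51% and 30.0% of all protein-coding genes, H4 stood at 18.8% and 37.5%, H2A at 11.8% and 23.5%, H3 at 6.67% and 26.7%, and H2B at 6.25% and 18.8%. Pooled shares of H2A, H2B and H3 were below that of all genes, H3 only slightly. Under 20% unique words were found for 12 of 17 H2A, 12 of 16 H2B, 8 of 15 H3 and 8 of 16 H4 genes. Class and repeated sequence therefore cannot be told apart in these shares. The H3.3 genes have 98.9 to 100% unique words, so that repeated sequence does not mark their promoters. In total 48 members had no summit in any list. Of these, 39 had under 20% unique words and 7 had 20 to 80% (his-42, his-32, his-8, his-7, his-6, his-5 and his-39). The other 2, the H3.3 gene his-70 and the H4 gene his-31, had at least 80%. Entries in a single replicate list only, or in both but not in the pooled list, were found for his-73, his-69, his-66 and his-71.

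At the edge of the window, the pooled summit of his-3 at 333 bp was the last inside and that of his-65 at 542 bp the first outside. In the thresholded list these were his-68 at 244 bp and his-35 at 816 bp. In replicate 1 they were his-69 at 477 bp and his-66 at 502 bp, and in replicate 2 his-66 at 478 bp and his-55 at 549 bp.

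Summits at 3′ ends were counted as well, as histone mRNA ends are formed there. A summit within 500 bp of the 3′ end, and nearer to it than to the 5′ end, was present in the thresholded list for his-60 and his-35 (2.78% of members against 2.64% of protein-coding genes). In the pooled list there were 18 members (25% against 25.7%). At his-35 the signal was 39.7 in replicate 1 and 49.3 in replicate 2, and 90.9 in the thresholded list, 187 bp beyond the end. At his-60 it was 31.4 and 19.7 in the replicates and 44.7 in the thresholded list, 47 bp beyond. These shares were near those of all protein-coding genes. They were not split by sequence uniqueness, which was measured around the 5′ ends only and was under 20% there for 40 of the 72 members. Of these 40, his-65 (26.8), his-16 (26.5), his-45 (25.3), his-47 (8.27), his-55 (7.44) and his-25 (4.78) had a pooled 3′ summit. How far repeated sequence limits an absent 3′ summit was not tested.

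Across the family the word ATGTGTCCC was common. It stood in the promoters of 43 of 72 histone genes (59.7%) and of 71 of all 19985 protein-coding genes (0.355%). By class the word was in 11 of 17 H2A, 10 of 16 H2B, 9 of 15 H3 and 11 of 16 H4 promoters, in that of H1, in 1 of 5 H3.3 promoters and in neither histone-fold domain gene. The core classes thus held it at like shares. Of the 43 promoters, 28 had under 20% unique words, so that most copies of the word lie in repeated sequence.

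Among members with at least 20% unique words, 15 held the word and 17 did not. Thresholded summits were near 7 of the 15 and none of the 17, a split that the choice of the word from these summits fixes. Pooled summits were near 10 of the 15 and 10 of the 17. The pair his-31/his-32, printed above, and the genes his-69, his-5 and his-6 held the word and had no pooled summit, so the word was not always accompanied by one. Outside the his-N series 28 genes held it, of which 1 had a thresholded (3.57%) and 7 a pooled summit (25%), no more than the 5.51% and 30.0% of all protein-coding genes.

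Within 100 bp of thresholded summits ATGTGTCCC was found 5 times among 2345, at the 4 histone summits and at an intergenic summit on chromosome X (14525928, signal 56.9, 747 bp from nspc-17). It was at none of the 86 summits near snRNA, 20 near spliced leader, 97 near snoRNA and 269 near tRNA 5′ ends, each within 200 bp. It was also at none of the 852 other thresholded summits at protein-coding genes, and at 34 of 27655 pooled entries that are not in the thresholded list (0.123%). The word was picked from the 4 histone summits and is rare elsewhere, so its absence from these sets does not set the histone summits apart. Exact words of the other SNPC-4 gene classes were not found in the members' promoters. These words are rare over all promoters too, so that their absence from 72 genes does not set the members apart. CGGAACCC and TACCGACA, words of snRNA and spliced leader summits in an earlier analysis of these data, were in 0.265% and 0.25% of all promoters and in none of the 72, and the piRNA motif CTGTTTCA was in 2.32% and in none. TATAAA was in 47 of 72 (65.3%) against 38.0% of all promoters. These 2 shares are not strictly alike. The windows are placed from the start codon for 65 of the 72 members but for 23.5% of all protein-coding genes. In addition, 33 of the 72 members shared an identical promoter with another member.

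A list of 30 related genes showed 7 with thresholded summits and 22 with pooled summits, where 5.51% and 30.0% of all protein-coding genes had one. Among 11 linker and variant histone genes outside the his-N series 3 were thresholded and 7 pooled. The linker histone gene hil-2 had 29.6 in replicate 1 and 40.3 in replicate 2, and 67.9 in the thresholded list at 112 bp inside the gene, and hcp-3, which encodes the centromeric H3 variant, had 42.9. The nearest entries to hcp-3 in replicates 1 and 2 were 27.2 and 22.5. For htz-1, which encodes H2A.Z, the value was 85.5 at -322 bp from the 5′ end. Its nearest pooled entry was a weaker one of 7.31 at 289 bp inside the gene. The nearest in replicate 1 was 3.83 at 240 bp inside the gene, and in replicate 2 it was 31.3 at -269 bp. Among 13 histone chaperone genes 4 were thresholded and 11 pooled, the thresholded ones being unc-85 at 75.3, nasp-2 at 57.1, chaf-2 at 55.9 and lin-53 at 53.6. The nearest entries in replicates 1 and 2 were 27.3 and 18.3 for nasp-2 and 33.7 and 27.4 for lin-53. For chaf-2 they were 49.9 and 2.72, the latter at rank 29402. The unc-85 thresholded entry lay 464 bp upstream, and its nearest replicate entries were 27.5 and 8.86 at other positions. Of 6 factors linked to histone mRNA 3′ ends none was thresholded and 4 were pooled.

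The word was also present in 4 of the 8 hil linker histone genes, hil-2, hil-3, hil-4 and hil-5, which were not used to choose it. It was centred 55 bp upstream of hil-2, hil-4 and hil-5 and 70 bp upstream of hil-3. The pooled summit of hil-4 (36.8) lay 5 bp and that of hil-3 (6.61) 6 bp from the word. For hil-4 the replicates held 17.2 at 32 bp upstream and 14.2 at 67 bp inside the gene. The hil-3 signal was below the pooled median of 11.3, at rank 23159 of 30000. Its nearest replicate 1 entry was 5.14 at 476 bp inside the gene, and replicate 2 held none in the window. The thresholded summit of hil-2 lay 167 bp from the word, and hil-5 had no pooled summit. All 4 promoters had at least 96.2% unique words.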

How the data were processed

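SNPC-4 ChIP-seq peak lists of 2 replicates of 1 group were used as the authors deposited them on ce11: an IDR-thresholded list (2345 entries), a pooled list of peaks and background (30000), and 1 such list per replicate (27573 and 30000). The deposited signal is the peak caller's enrichment value per entry, and the deposited −log10 q-value was used in no result. Summits came from the deposited offset. The sources used here name no peak caller, aligner or IDR threshold, and reads were not analysed here, so that depth per sample is unknown. Values could be compared within a list only.

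Genes were placed by the WBcel235 (ce11) annotation of Ensembl, release 115, and named by RefSeq symbols, matched by WormBase identifier for 19965 of 19985 protein-coding genes. All list ends lay within the reference chromosomes. Distances, words and shares were computed with Python 3.11.15, numpy 2.4.6 and pandas 2.3.3, and the scripts were tested on simulated data. The named genes were every member with a thresholded summit, the 15 highest by pooled signal, every single member, the highest and a summit-free member of each class, and the thresholded genes of the related list. Members, lists and the word were chosen with earlier results of these data known. With 1 group, no test was made and replicate values are printed instead of an error. Alternatives covered the window, peak overlap, the threshold, sequence uniqueness, summits near noncoding RNA genes, shared summits, transcript starts, cluster gaps and each replicate alone.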

Additional observations from a re-analysis of the deposited data

How the results depend on the processing

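Of 136 values recomputed under 20 alternative settings, 87 moved by less than the limits used (1.5 times for a count, 1 SD of the 2 replicates otherwise) and 49 by more. For the shares of single genes this SD was 0, so that any change counted as more. For the median pooled signal it was 2.33, taken from the 2 replicate lists, each on its own scale. In the pooled list the order of clustered (25.4%) and single genes (60.0%) turned over with stronger entries only and with the strongest entries of either replicate, and was equal with at least 80% unique words.

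With a window of 1000 bp, 35 members had a pooled and 33 a replicate 2 summit, the pooled median distance was 196 bp and signal 14.3, and 47.8% (pooled) and 13.4% (thresholded) of clustered genes were counted. With at least 80% unique words, pooled, replicate 1 and replicate 2 counts were 12, 14 and 10, the median signal was 43.0, clustered shares were 75% pooled and 50% thresholded, and 75% of single genes were pooled. With genes that share a summit counted once, counts were 12 pooled and 4 thresholded, the median distance 99.5 bp, and clustered shares 15.3% and 6.25%. These shares fall by construction, since only pairs with a summit were merged. With every divergent pair counted as 1 promoter, added after seeing the data, counts were also 12 and 4 and clustered shares 25% and 11.1%.

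With stronger entries only, counts were 7 pooled, 7 in replicate 1 and 5 in replicate 2, median signal was 89.9, clustered shares were 10.4% pooled and 7.46% thresholded, and the single pooled share was 0%. With peak overlap, the median signal was 14.3 and the clustered pooled share 35.8%. Without summits nearer noncoding RNA genes these were 22.9 and 19.4%. The strongest summit in the window gave a median signal of 25.8. The strongest 2345 entries of 1 replicate alone, which change both the replicate and the strength, gave 5 to 7 members when either replicate was left out, median distances of 159 to 163 bp, median signals of 47.9 to 51.2, clustered shares of 7.46 to 10.4% in both lists and single pooled shares of 0%. The whole list of 1 replicate gave 19 to 22 members, median distances of 136 to 165 bp, median signals of 7.76 to 11.1 on each list's own scale, clustered shares of 22.4 to 26.9% and a single share of 80%. Also added after seeing the data were the 3′ end in place of the 5′ end (2 thresholded members), at least 20% unique words, and 50-base words. The cause of these shifts was not tested beyond what each setting changes.

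No paired analysis was possible because the study had 1 group. Unknown depth and promoters with few unique words both limit what an absent summit shows.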
